A study of Mus musculus with 12 samples.

Results

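Polysomal RNA of 3T3-L1 cells was compared between 6 h and 0 h of hormonal induction, to see which messages gained or lost signal in polysomes in the first hours of adipogenesis. 3T3-L1 is a clonal mouse fibroblast line that turns into adipocytes in culture. The members are the 6 arrays of 12 in the series whose labels give pooled gradient fractions 9 to 11 as polysomal, 3 at each time. The 6 arrays of non-polysomal RNA entered the estimate of the spread only. The 0 h cells were post-confluent, had received no hormones and came from medium with 10% newborn bovine serum. The 6 h cells were in medium with 10% fetal bovine serum to which IBMX (0.5 mM), dexamethasone (1 µM) and insulin (5 µg/ml) had been added, so the effect of the hormones and that of the new serum cannot be told apart. The methods describe 3 biological replicates of this line. A change of the polysomal signal can come from more mRNA, from a larger share of it on ribosomes, or from both, and these were not separated here.

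Polysomes are mRNAs that carry several ribosomes, and sedimentation through sucrose separates them from free mRNA and single ribosomes. Each agent of the induction mixture acts through a known pathway. IBMX blocks the breakdown of cAMP and so activates protein kinase A and the factor CREB. Dexamethasone binds the glucocorticoid receptor. Insulin, at this dose also through the IGF1 receptor, activates AKT and mTORC1, and mTORC1 promotes the translation of mRNAs that begin with a terminal oligopyrimidine (TOP) tract, among them those of the ribosomal proteins. In the first hours the cells make the early factors C/EBPβ and C/EBPδ, and the later factors C/EBPα and PPARγ follow over days.

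Per polysomal array, the scanner software rated 55.9 to 59.4% of the non-control probes as well above background. No non-control spot was marked as saturated, and control spots, the spike-ins among them, were not counted for this. The intensity at the 75th percentile ran from 449 to 514 at 0 h and from 426 to 567 at 6 h. Pearson's r between arrays of one time was 0.990 to 0.992, and between arrays of different times 0.968 to 0.971. The main scale was set by 10 spike-in RNAs, and the check was to scale each array to its 75th percentile. The choice matters, because the spike-in offsets were 0.12 to 0.16 (log2) at 0 h and -0.48 to -0.21 at 6 h. The 5 dimmer spike-ins differed between the times by -0.99 to -0.77 and the 5 brighter ones by -0.29 to 0.00, so the spike-ins themselves did not give a single offset. Scaling to the 75th percentile lowered the changes by 0.47 on average.

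On the spike-in scale, the median probe changed by 0.54 (log2, 6 h minus 0 h), and on the 75th percentile scale by 0.062. The median signal of an array was 4.82 ± 0.01 at 6 h and 4.50 ± 0.10 at 0 h on the spike-in scale (SD, n = 3), which gave p = 0.1 in an exact two-sided permutation test, the smallest value that 3 against 3 arrays allow. Genes whose probe was well above background on none of the 6 arrays shifted by the same median of 0.54, and by 0.063 on the other scale. A shift shared by all genes is therefore not read here as a rise of single genes, and directions near it are given on both scales.

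In the tests below a gene rose or fell where the adjusted p of limma's moderated test was below 0.05 and the change was more than 2-fold, and a gene is represented by its brightest probe. Of 41173 probes 7891 rose (19.2%) and 2061 fell (5.01%) on the spike-in scale, and 3640 (8.84%) and 4014 (9.75%) on the 75th percentile scale. On the spike-in scale 5979 of 32300 genes rose (18.5%) and 1448 fell (4.48%). On the 75th percentile scale 2698 rose (8.35%) and 2820 fell (8.73%). The share of called genes that rose was thus 80.5% on the first scale and 48.9% on the second. The 2698 and the 1448 genes passed on both scales, and unless a scale is named, "rose" and "fell" of a single gene mean both. Values that follow "by", and those in brackets after a gene, are log2 changes on the spike-in scale with their standard error where given, and pairs in brackets after the counts or median of a list are its values on the 75th percentile scale. Among these, 620 genes rose and 386 fell more than 4-fold, and 204 rose and 94 fell more than 8-fold.

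**Figure D1:**
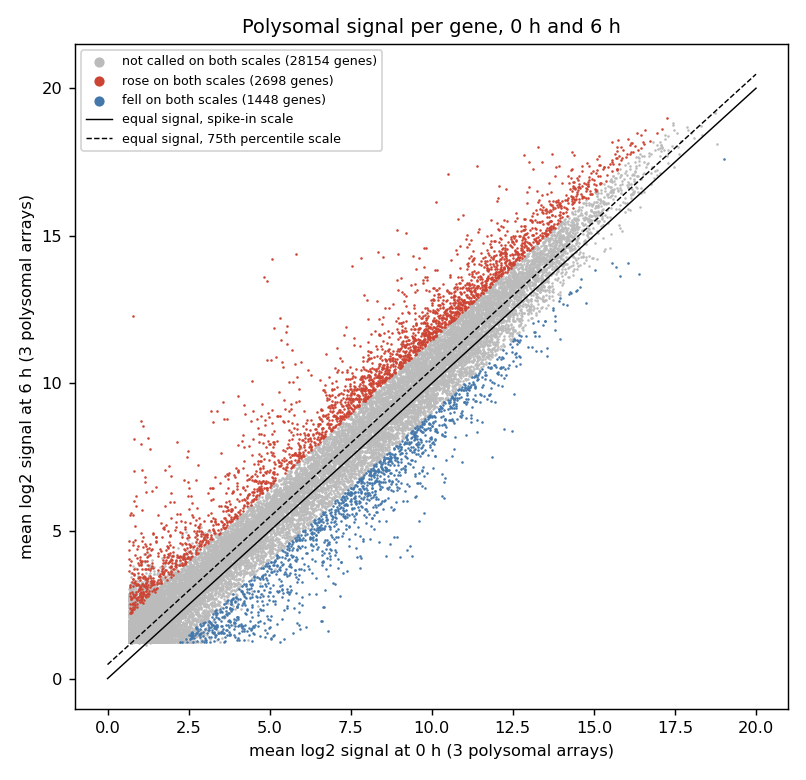
Mean log2 signal of each gene's probe on the 3 polysomal arrays at 6 h (vertical axis) against the 3 at 0 h (horizontal axis), spike-in scaled, with genes that rose or fell on both scales in colour. The 2698 genes that rose and the 1448 that fell spread over the whole range of signals.

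How often a gene was called differed between groups of genes with different 0 h signal. Of the 16098 genes well above background on all 6 arrays, 27.5% rose and 6.19% fell on the spike-in scale, and 13.6% and 13.0% on the 75th percentile scale. Among the 4025 of these genes with the lowest 0 h signal 21.6% rose and 2.11% fell, and among the 4025 with the highest 34.3% rose and 3.78% fell. Falls were most frequent, at 11.0%, in the 4024 genes just above the lowest group. Asking for detection on all 6 arrays leaves out genes that dropped to background at 6 h. This limits the falls that the lowest group can hold, and the 0 h signal is itself part of the change. Whether the level as such mattered was not tested. Of the 11938 genes never well above background, 6.22% rose and 0.218% fell on the spike-in scale, and 0.963% and 0.913% on the other. Most of the rises of undetected genes thus ended when the shared shift was removed. For lists whose genes were all well above background, 27.5% and 6.19% are the closer comparison on the spike-in scale.

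The largest rise was that of Fgl2, which encodes the secreted protein fibroleukin, with log2 signals of 5.67, 4.78 and 4.74 at 0 h and 14.18, 14.20 and 14.26 at 6 h. This is a change of 9.15 ± 0.25 (SE), 567-fold, with adjusted p = 2.4e-09. The first 0 h array was above the other two, and the times did not come near each other. Ramp3 codes for a partner protein that turns the calcitonin receptor-like receptor into a receptor for adrenomedullin. Its log2 signals were 5.86, 5.87 and 5.73 at 0 h and 14.33, 14.38 and 14.43 at 6 h, a change of 8.56 ± 0.07 (377-fold, adjusted p = 7.0e-12). Slc16a11, of the monocarboxylate transporter family, had 5.03, 4.89 and 4.83 at 0 h and 13.50, 13.38 and 13.53 at 6 h and rose 377-fold, by 8.56 ± 0.09 (adjusted p = 3.1e-11). In both genes the 3 arrays of a time lay close together and the times were far apart.

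Prg4 (lubricin) rose 119-fold, and its change of 6.89 ± 0.35 had the widest error of these genes. The cytokine gene Il11 rose 109-fold, by 6.77 ± 0.13. Tcim rose by 6.45, and Il1rl1, the receptor of interleukin-33, by 6.26. The AP-1 factor gene Fosl1 had 7.70, 7.88 and 7.89 at 0 h and 14.19, 14.23 and 14.37 at 6 h, a rise of 6.44 ± 0.11 (86.8-fold). Uap1, which makes UDP-N-acetylglucosamine, had 8.15, 8.40 and 8.45 at 0 h and 14.44, 14.38 and 14.57 at 6 h and rose 69.9-fold. The list ended with 2 genes of epidermal structural proteins, Lce1f (6.22) and Krt15 (6.12). All the genes named had every 6 h array above every 0 h array.

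**Figure D2:**
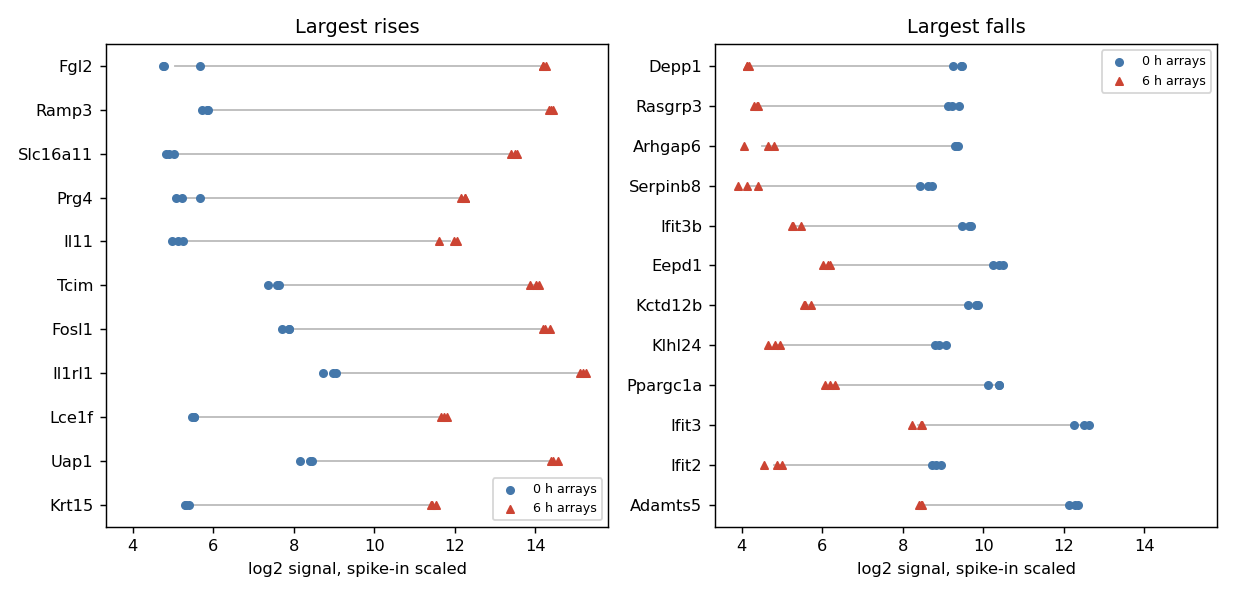
Log2 signals, spike-in scaled (horizontal axis), on each of the 3 arrays at 0 h (circles) and at 6 h (triangles) for 11 of the 12 largest rises and for the 12 largest falls, with a line joining the means. The rises run from 6.12 to 9.15 and the falls from -5.23 to -3.79, and no gene has arrays of the times that overlap.

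Some genes were measured at one time only, so that their fold is a bound. Krt23, a keratin gene, was not well above background on any 0 h array (0.76, 1.04 and 0.54) and had 12.23, 12.19 and 12.40 at 6 h, at least 632-fold higher (adjusted p = 6.5e-11). The same held for 3 eosinophil-associated ribonuclease genes, Ear1 (at least 53.3-fold higher), Ear10 (35.2) and Ear6 (31.8), which are near-identical copies whose probes may not tell them apart. Dio2, the deiodinase that makes active thyroid hormone, was at least 33.1-fold higher. In the other direction Akap6, which anchors protein kinase A, was at least 12.6-fold lower at 6 h. Zfp467, a zinc finger factor known to favour adipocytes over osteoblasts, was at least 9.75-fold lower, and Mrvi1 at least 9.65-fold lower. Celf5 (at least 11.2-fold lower) and Apol7a (8.94) each had a second probe that was not called, with changes of -0.74 and -0.53.

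The largest fall was that of Depp1, a target of FOXO factors, with log2 signals of 9.24, 9.44 and 9.47 at 0 h and 4.13, 4.14 and 4.18 at 6 h. It changed by -5.23 ± 0.17, a 37.5-fold fall (adjusted p = 5.2e-09). Rasgrp3, an activator of RAS, fell 29.6-fold (-4.89 ± 0.10), and Arhgap6 28.4-fold (-4.83 ± 0.20). Serpinb8 (-4.45), Ifit3b (-4.26), Eepd1 (-4.25), Kctd12b (-4.15) and Klhl24 (-4.12) followed. Ppargc1a, which encodes the coactivator PGC-1α of mitochondrial genes, had 10.11, 10.40 and 10.38 at 0 h and 6.32, 6.08 and 6.18 at 6 h and fell 17.2-fold, a change of -4.10 ± 0.11 (adjusted p = 2.1e-09). All 3 arrays of Ppargc1a at 6 h were below all at 0 h. Ifit3, an interferon-induced gene, had 12.26, 12.50 and 12.62 at 0 h and 8.46, 8.22 and 8.48 at 6 h and fell 16.8-fold. The related gene Ifit2 changed by -4.02 ± 0.16, and Adamts5, a protease that cleaves aggrecan, by -3.79 ± 0.08.

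The messages of the translation machinery rose together. Of 81 cytosolic ribosomal protein (RP) genes measured, 79 rose and 0 fell on the spike-in scale, and 75 rose on the 75th percentile scale, where all genes gave 18.5% and 8.35%. Their median change was 2.11, and 1.63 on the 75th percentile scale, beside 0.54 and 0.065 for all genes. Rpl28, of the large subunit, had the highest change, 3.23 ± 0.09 (9.38-fold, adjusted p = 3.2e-09), from log2 signals of 13.71, 13.94 and 13.77 at 0 h and 16.92, 17.00 and 17.19 at 6 h. Rpl27a (3.15) and Rps26 (2.90) were next, and Rps18, a small subunit protein, had 17.26, 17.51 and 17.01 at 0 h and 18.81, 19.11 and 19.02 at 6 h, a change of 1.72 ± 0.12. The arrays of the times did not overlap in Rpl28 or in Rps18. The members that did not pass were Rpl21 (0.13) and Rps27l (0.56), and Rplp0 (1.32), Rpl7 (1.34), Rpl7a (1.38) and Rpl41 (1.47) passed on the spike-in scale only. RP genes have many processed pseudogenes, and a probe may also bind their transcripts. Quantile normalization gave 44 rises in this list.

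The tract that gives TOP mRNAs their name can be read in the reference. In the RefSeq models of GRCm38.p6, 14 of 61 RP genes with a start window (23.0%) had an annotated start at C followed by at least 4 of C or T, beside 2.79% of 14517 genes tested. The windows below show 4 of the 14, examples from 4 chromosomes with tracts of 8 to 13 bases, with the tract in capitals and 10 bases before the annotated start in front of it. Rps6 lies at chr4:86857348-86857377 (minus strand), Rps18 at chr17:33955646-33955675 (minus), Rpl15 at chr14:18270967-18270996 (minus) and Rpl28 at chr7:4792955-4792984 (plus). Rps6 rose by 2.31 and Rpl15 by 1.80. Where no match was found, only the annotated start lacks these letters.
Rps6: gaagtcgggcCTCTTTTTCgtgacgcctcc
Rps18: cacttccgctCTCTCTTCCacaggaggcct
Rpl15: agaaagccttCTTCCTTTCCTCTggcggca
Rpl28: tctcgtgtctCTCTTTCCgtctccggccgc

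Of 20 other mRNAs known to begin with a TOP tract, 14 rose (70%) and 0 fell, 7 of them on both scales, with a median of 1.27 (0.80). All genes gave 18.5% rises. An annotated start with the tract was found in 4 of the 14 genes with a start window (28.6%), beside 2.79% of all genes tested. Tpt1, which codes for the tumour protein TCTP, had 13.10, 13.29 and 13.32 at 0 h and 16.39, 16.53 and 16.63 at 6 h and rose 9.69-fold, by 3.28 ± 0.08. The elongation factor genes Eef1b2 (2.45) and Eef1a1 (1.69) rose on both scales, and Eef2 (1.06) on the spike-in scale, with 0.58 on the other. Eif3f, a subunit of the initiation factor that recruits the small subunit, rose by 2.04. Its annotated start at chr7:108934405-108934434 (plus strand) also opens with such a tract, shown in capitals.
Eif3f: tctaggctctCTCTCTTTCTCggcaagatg

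Of 48 translation initiation factor genes, 29 rose and 2 fell on the spike-in scale, and 17 and 2 on the 75th percentile scale (median 1.15, 0.67). The first counts are 60.4% and 4.17%, beside 18.5% and 4.48% of all genes. Eif1, which guards start codon choice, rose by 2.38 ± 0.09. The cap-binding protein gene Eif4e rose by 2.26 ± 0.11 and the RNA helicase gene Eif4a1 by 2.09 ± 0.08. Eif4b, which stimulates that helicase, did not pass with 0.78 ± 0.07 on the spike-in scale and 0.31 on the other. The 2 that fell are kinases of eIF2α, which shut initiation off: Eif2ak2, also an interferon-induced gene (-1.12 ± 0.10), and Eif2ak4 (-1.10 ± 0.07) on its brightest probe, with -0.41 on another. Quantile normalization gave 5 rises in this list and turned Eif4ebp1 (1.01), the inhibitor of eIF4E, to -0.012. Its 75th percentile value was 0.53.

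The genes that build ribosomes rose as well. Of 65 ribosome biogenesis genes 55 rose and 0 fell, 42 on both scales, with a median of 1.69 (1.22). Their share of rises was 84.6%, beside 18.5% of all genes. Polr1b, the second largest subunit of RNA polymerase I, had 8.30, 8.69 and 8.55 at 0 h and 11.05, 10.99 and 11.07 at 6 h and rose 5.73-fold, by 2.52 ± 0.10 (adjusted p = 1.6e-08). The 3 arrays at 6 h lay within a narrow range, well above those at 0 h. The processing factors Rrp9 (2.96), Nop16 (2.72) and Rrs1 (2.70) had the largest rises, and the methyltransferase gene Nop2 rose by 2.59. Ncl (nucleolin) did not pass with 0.98 for its brightest probe, 0.50 on the 75th percentile scale and -0.073 after quantile normalization, while another of its probes had 2.41. Among all Polr genes on the array, which encode subunits of the 3 nuclear RNA polymerases, 16 of 26 rose (61.5%), 11 on both scales, and 0 fell.

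The E-box CACGTG, which binds MYC and related factors, was sought on both strands in windows of 300 bases, 250 before to 50 after the annotated start. It was found in 12 of 58 ribosome biogenesis genes (20.7%), in 9.93% of all 14517 genes, and in 12.1% of the genes that rose and 11.5% of those that fell on both scales. Its share was 25.0% in 20 cAMP response genes and 21.4% in 14 of the other TOP mRNAs. The windows below hold that of Nop2 (chr6:125131813-125131838, plus strand) and of Rrn3 (chr16:13780641-13780666, plus), a factor that recruits RNA polymerase I and that rose by 1.50. Capitals mark the E-box. They are shown as members of the list with the motif just before the start.
Nop2: gtccctggatCACGTGtgttccggtg
Rrn3: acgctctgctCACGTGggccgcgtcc

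Myc itself had 9.29, 9.52 and 9.51 at 0 h and 12.58, 12.44 and 12.65 at 6 h and rose 8.67-fold, by 3.12 ± 0.09 (adjusted p = 3.0e-09), with no overlap of the times. In the Myc network, 6 of 12 genes rose and 1 fell (5 and 1), or 50% and 8.33%, beside 18.5% and 4.48% of all genes. Mxd1 (2.69) and Mxi1 (1.90), whose products compete with MYC for its partner MAX, rose, and Mxd3 (-1.03) fell by its brightest probe, with -0.82 and no call on another. Polyamine synthesis, a known process downstream of MYC, had 9 rises (75%) and 0 falls among 12 genes, 8 on both scales. Srm, the spermidine synthase, had 12.58, 12.72 and 12.62 at 0 h and 15.56, 15.61 and 15.65 at 6 h and rose 7.82-fold, by 2.97 ± 0.07 (adjusted p = 1.1e-09). Amd1 (2.58), Smox (2.14) and Odc1 (1.67) rose also, so that both decarboxylases of the pathway were higher at 6 h.

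Other housekeeping systems moved less, and most of their calls depended on the scale. Of 79 mitochondrial RP genes 34 rose on the spike-in scale (43%) and 10 on the 75th percentile scale, with medians of 0.92 and 0.44 and 0 falls. Of 76 oxidative phosphorylation genes 36 rose (47.4%) and 7 of these on both scales (0.98, 0.50), led by cytochrome c, Cycs (2.41). Of 42 proteasome genes 8 rose (19%) and 0 fell, against 1 and 3 on the 75th percentile scale (0.72, 0.25). That share of rises was close to the 18.5% of all genes. It was below the 27.5% of genes well above background on all 6 arrays, a class that held 41 of the 42. The 22 aminoacyl-tRNA synthetase genes and their scaffolds gave 7 rises (31.8%), 2 on both scales, and 2 falls on the 75th percentile scale alone. Among 29 genes of nucleotide, serine and one-carbon synthesis 12 rose (41.4%), 4 on both scales, led by Impdh1 (2.47). Impdh2, the isoform known from proliferating cells, had 1.44 ± 0.11 and passed on the spike-in scale only (0.96). Protein import into mitochondria, by the Timm genes, had 11 rises among 15 genes (73.3%), 6 on both scales.

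**Figure D3:**
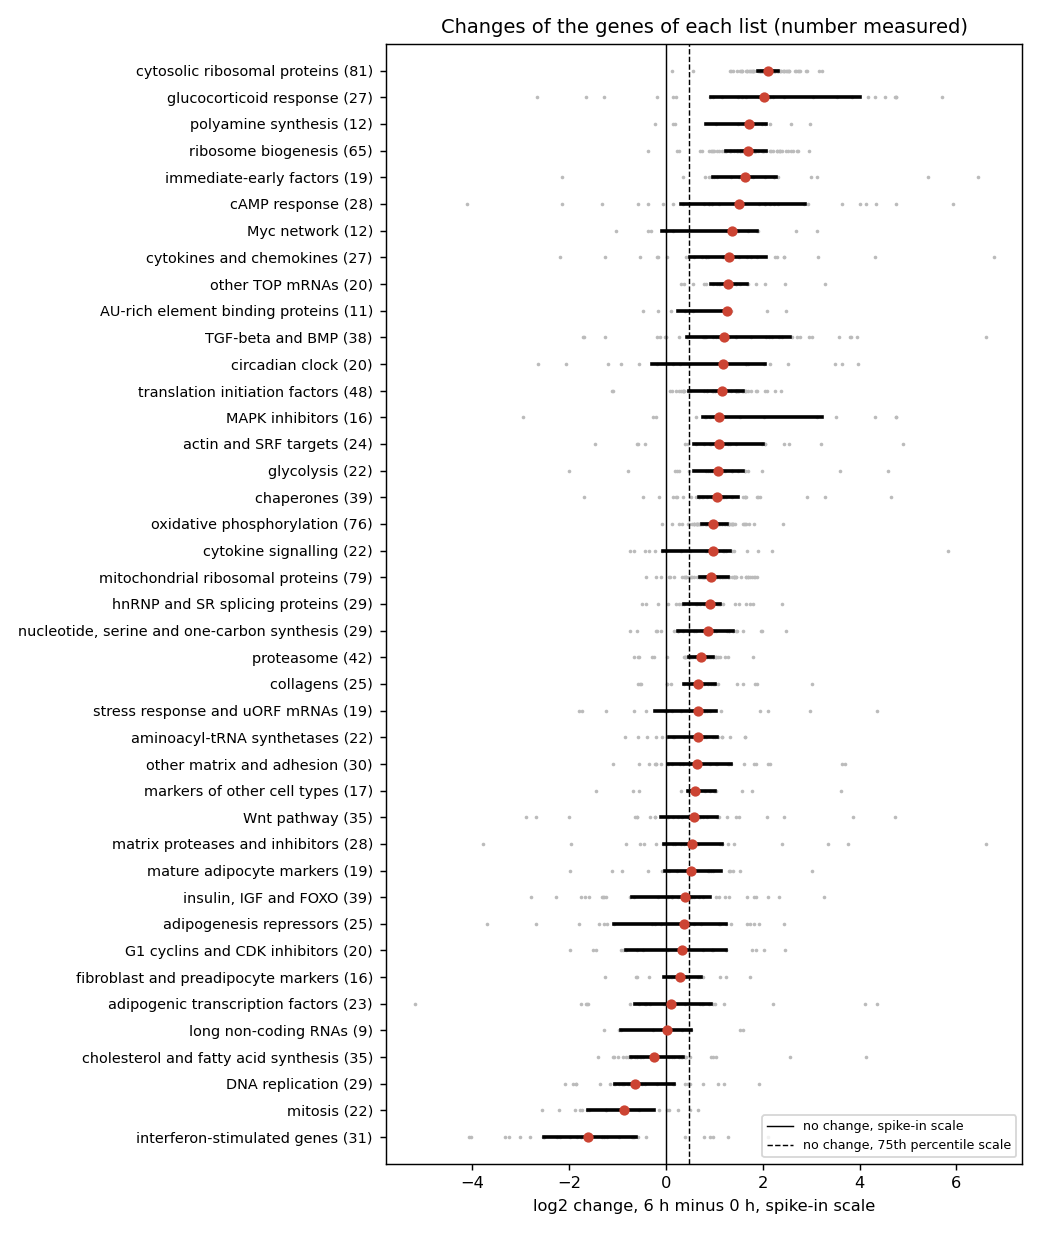
Log2 change of each gene, 6 h minus 0 h, spike-in scale (horizontal axis), in each gene list with the number measured in brackets. Grey points are genes, black bars the range between the quartiles and red points the median. Cytosolic RPs have the highest median (2.11) and interferon-stimulated genes the lowest (-1.62), and the dashed line marks no change on the 75th percentile scale.

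Chaperone genes rose in 22 of 39 cases, 10 on both scales, and 1 fell. Their spike-in shares of 56.4% and 2.56% stand beside 18.5% and 4.48% of all genes. Hspb1, a small heat shock protein, rose 25.2-fold, by 4.66 ± 0.10, and Hsph1 (3.29) and Bag3 (2.91), partners of HSP70, were next. Hspa4l fell by 1.70 ± 0.08. Of 29 hnRNP and SR splicing protein genes 12 rose (41.4%), 5 on both scales, and 0 fell. Srsf2 (2.40), Hnrnpc (1.79) and Srsf7 (1.73) led them.

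Targets of the glucocorticoid receptor were among the genes with the highest rises. Of 27 such genes 19 rose and 3 fell, and 18 and 3 on the 75th percentile scale, with a median of 2.02 (1.54). The shares on the spike-in scale were 70.4% and 11.1%, beside 18.5% and 4.48% of all genes. Dusp1, the phosphatase that switches MAP kinases off, had 9.72, 9.92 and 9.80 at 0 h and 14.53, 14.55 and 14.62 at 6 h and rose 27-fold, by 4.75 ± 0.07 (adjusted p = 1.8e-10). Fkbp5, a cochaperone of the receptor, had 8.93, 9.12 and 9.11 at 0 h and 13.51, 13.56 and 13.68 at 6 h and rose 23.1-fold, by 4.53 ± 0.12 (adjusted p = 1.9e-09). In both genes the arrays of a time differed far less than the times. Tsc22d3, which encodes the anti-inflammatory protein GILZ, rose by 3.85, the metallothionein gene Mt2 by 4.74, Fam107a by 5.71 and the EGF receptor inhibitor gene Errfi1 by 4.74.

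The 3 members that fell were Angptl4, Nr3c1 and Pdk4. Angptl4, an inhibitor of lipoprotein lipase, had 16.34, 16.47 and 16.31 at 0 h and 13.66, 13.68 and 13.78 at 6 h and fell 6.37-fold, a change of -2.67 ± 0.07 (adjusted p = 2.4e-09). Nr3c1, the receptor itself, had -1.65 ± 0.10, with 3 of its 4 probes called and 1 at -0.57. Pdk4, a kinase that inhibits pyruvate dehydrogenase, had -1.27 ± 0.08. Angptl4 and Pdk4 are also known targets of FOXO and PPAR factors. The full palindrome of AGAACA, any 3 bases and TGTTCT, the receptor's binding motif in its strict form, sought on both strands, was found in the start window of 2 genes of 14517 (0.0138%), 1 of them on this list. It is Sgk1, a kinase gene that rose by 1.91 ± 0.10, shown with the motif in capitals at chr10:21993694-21993722 (plus strand).
Sgk1: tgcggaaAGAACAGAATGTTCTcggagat

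Of 28 genes that respond to cAMP 15 rose and 3 fell, and 14 and 4 on the 75th percentile scale (median 1.51, 1.04). Nr4a1, an orphan nuclear receptor gene, had 11.23, 11.47 and 11.53 at 0 h and 17.42, 17.28 and 17.34 at 6 h and rose 61.3-fold, by 5.94 ± 0.09 (adjusted p = 2.1e-10). Its relative Nr4a2 rose by 4.13. Pde4b, which breaks cAMP down, rose by 4.34 ± 0.08, and Pde4d by 3.63. The kinase gene Sik1 (2.93) and the repressor gene Crem (2.05) code for known brakes on CREB and rose too. One of the 3 probes of Pde4b was not well above background and had 0.53. The falls were Ppargc1a, given above, Egr1 (-2.15 ± 0.13) and Cited2 (-1.31 ± 0.08).

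The cAMP response element TGACGTCA, a palindrome that reads alike on both strands, was in the start window of 3 of 20 cAMP genes (15.0%) and of 2.84% of all genes. Below are the sites of Dusp1 (chr17:26508598-26508625, minus strand) and Prkar1a (chr11:109650890-109650917, plus), with the element in capitals, as a member that rose and one that did not pass. Prkar1a, the regulatory subunit of protein kinase A, had 0.88 ± 0.09. The third was Areg (1.09), whose probe was not well above background.
Dusp1: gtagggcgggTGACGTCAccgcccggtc
Prkar1a: cgaggcgcatTGACGTCAgcagccgaac

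The immediate-early factors, which serum and growth factors induce within minutes, were higher at 6 h than at 0 h in most cases. Of 19 genes 13 rose (68.4%) and 1 fell (5.26%), and 11 and 1 on the 75th percentile scale. After Fosl1, the largest rises were those of Maff (5.41), Myc and Ier3 (3.00). Fos (2.23), Jun (2.23) and Junb (2.32) rose, and Egr1 was the one that fell. The inhibitors of MAP kinase signalling gave 9 rises and 1 fall among 16 genes (7 and 1), with 56.2% rises beside 18.5% of all genes on the spike-in scale. Dusp2 (4.31) rose most after Dusp1 and Errfi1, and Dusp8, not well above background on any 6 h array, was at least 1.95-fold lower at 6 h, a difference that background-subtracted values plus 50 did not keep (0.023 on the log2 scale).

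Among 23 adipogenic transcription factor genes 5 rose and 5 fell, and 3 and 7 on the 75th percentile scale (median 0.10, -0.38). On the spike-in scale this is 21.7% in each direction, beside 18.5% rises and 4.48% falls among all genes. Cebpb, which starts the cascade, had 9.51, 9.62 and 9.43 at 0 h and 13.87, 13.87 and 13.89 at 6 h and rose 20.5-fold, by 4.35 ± 0.09 (adjusted p = 6.0e-10). Klf5, which acts with it, rose 17.2-fold, by 4.11 ± 0.09, and Klf9, also a glucocorticoid target, by 2.21 ± 0.09. Cebpd did not pass, with 0.97 ± 0.09 on the spike-in scale, 0.50 on the 75th percentile scale and -0.32 after quantile normalization. Cebpa (1.20 ± 0.09) and Klf4 (1.01 ± 0.09) passed on the spike-in scale only. Pparg had 11.31, 11.56 and 11.46 at 0 h and 11.38, 11.33 and 11.47 at 6 h, and the times overlapped, with a change of -0.050 ± 0.09 (adjusted p = 0.64), while the 75th percentile value was -0.52. Klf6 (-1.75 ± 0.08), Ebf1 (-1.63) and Nr1h3 (-1.61), the oxysterol receptor LXRα, fell together with Nr3c1 and Zfp467.

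Repressors of adipogenesis also went both ways, with 8 rises and 7 falls among 25 genes (5 and 7). These are 32% and 28%, beside 18.5% and 4.48% of all genes. Gata3 (-3.70 ± 0.38, well above background on 1 of 3 arrays at 6 h), Wnt6 (-2.69 ± 0.20, on 2 of 3) and Ddit3 (-1.79 ± 0.08), which encodes the C/EBP inhibitor CHOP, fell. Wnt5a (2.43 ± 0.34), E2f4 (1.91 ± 0.10) and Hes1 (1.81 ± 0.09) rose. Dlk1, the surface protein PREF-1 that marks preadipocytes, had 1.24 ± 0.08 on the spike-in scale, 0.77 on the 75th percentile scale and -0.077 after quantile normalization. Of 19 markers of mature adipocytes 4 rose and 2 fell, 2 and 3 on the 75th percentile scale. Their share of rises on the spike-in scale, 21.1%, was near the 18.5% of all genes, and 10.5% fell. Of the 19 markers 13 were well above background on all 6 arrays, a class in which 27.5% of genes rose. Dgat2, which completes triglycerides, rose by 3.02 ± 0.10 and the lipid droplet gene Cidec by 1.53 ± 0.11. Adipoq (adiponectin) did not pass with 0.89 ± 0.12, and Plin4 (-1.98 ± 0.08) and Lipe (-1.12 ± 0.10), the hormone-sensitive lipase, fell.

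**Figure D4:**
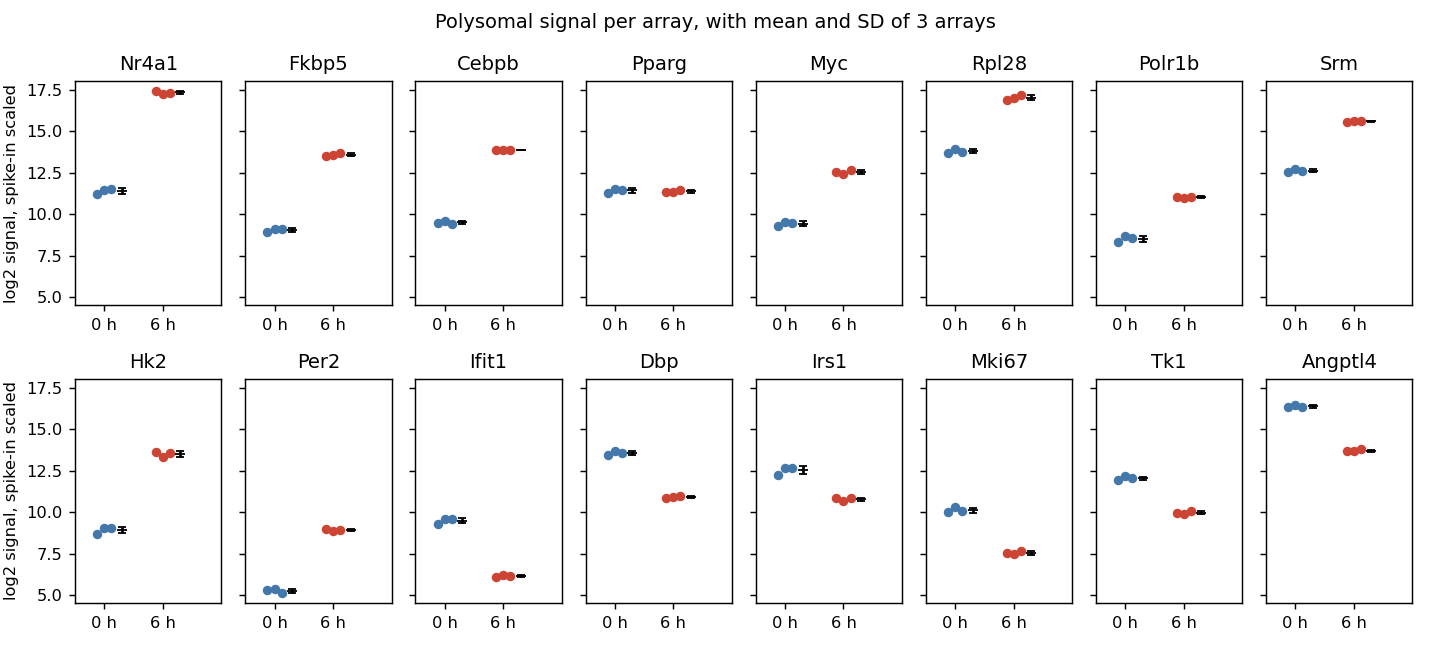
Log2 signal, spike-in scaled (vertical axis), on each of the 3 arrays at 0 h and at 6 h for 16 genes of the functions described, with the mean and SD beside the points. Pparg overlaps between the times, and in the other 15 genes the arrays of the times are apart.

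Genes of the insulin and IGF pathway and of its FOXO targets gave 10 rises and 9 falls among 39, and 6 and 11 on the 75th percentile scale. On the spike-in scale these are 25.6% and 23.1%, beside 18.5% and 4.48% of all genes. All 39 were well above background on all 6 arrays, a class with 27.5% rises and 6.19% falls. Irs1, the substrate of the insulin receptor, had 12.26, 12.64 and 12.68 at 0 h and 10.83, 10.64 and 10.82 at 6 h and fell 3.39-fold, a change of -1.76 ± 0.12 (adjusted p = 6.0e-07). Of the members known as FOXO targets, Fbxo32 (-2.79 ± 0.14), Bcl6 (-2.27 ± 0.08) and Pik3ip1 (-1.31 ± 0.08) fell, Bnip3 (1.87 ± 0.08) rose, and Ccng2 (-0.67 ± 0.09) did not pass on the spike-in scale. Trib1 (3.25), Igfbp4 (2.33) and Trib2 (2.11) rose. The factor gene Foxo1 itself rose by 1.66.

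Of 22 glycolysis genes 11 rose and 1 fell, and 7 and 2 on the 75th percentile scale. Those spike-in counts are 50% and 4.55%, beside 18.5% and 4.48% of all genes. Hk2, the hexokinase that insulin induces, had 8.70, 9.01 and 9.03 at 0 h and 13.63, 13.32 and 13.57 at 6 h and rose 24.1-fold, by 4.59 ± 0.12 (adjusted p = 1.9e-09), with no overlap. Pfkfb4, a regulator of phosphofructokinase, rose by 3.59 and the glucose transporter gene Slc2a1 by 1.64. The neuronal enolase gene Eno2 fell by 2.01 ± 0.12. Beside Uap1, 2 further genes that make the sugar precursors of hyaluronan and proteoglycans were high, a group chosen after the values were seen. Ugdh had 12.66, 12.94 and 12.89 at 0 h and 17.73, 17.71 and 17.75 at 6 h, a rise of 4.90 ± 0.10, and Gfpt2 rose by 5.44 ± 0.27. The hyaluronan synthase gene Has2 rose by 1.82.

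Among 35 genes of sterol and fatty acid synthesis 3 rose and 3 fell, and 2 and 14 on the 75th percentile scale (median -0.24, -0.72). On the spike-in scale this is 8.57% in each direction, beside 18.5% rises and 4.48% falls among all genes. All 35 were well above background on all 6 arrays, a class with 27.5% rises and 6.19% falls. The enzymes Fdft1 (-1.40 ± 0.07), Mvk (-1.10 ± 0.08) and Acat2 (-1.07 ± 0.07) fell, though other probes of Fdft1 (-0.79) and Mvk (-0.71) were not called on the spike-in scale. Pmvk, which acts right after Mvk, rose by 4.14 ± 0.08 and the desaturase gene Scd1 by 2.57 ± 0.08.

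**Figure D5:**
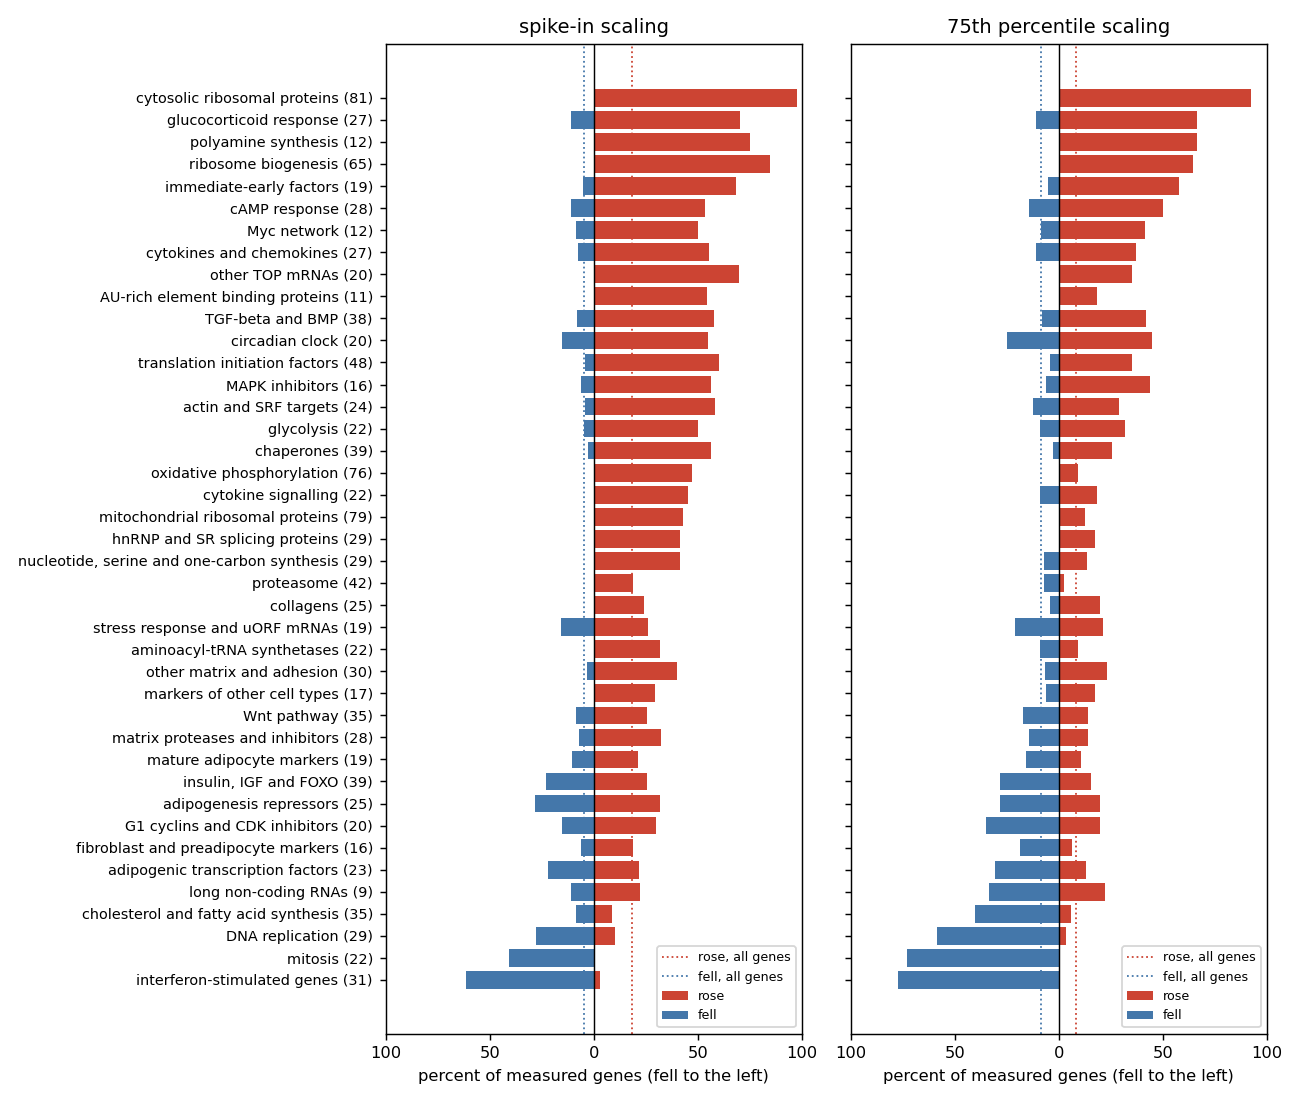
Percent of the measured genes of each list that rose (to the right) or fell (to the left), on the spike-in scale (left panel) and the 75th percentile scale (right panel), with dotted lines at the shares among all genes. Cytosolic RPs and ribosome biogenesis stay far to the right in both panels, and mitosis, DNA replication and sterol synthesis extend further to the left in the right panel.

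Of 20 circadian clock genes 11 rose and 3 fell, and 9 and 5 on the 75th percentile scale. Rises thus made up 55% and falls 15% on the spike-in scale, beside 18.5% and 4.48% of all genes. The period gene Per2 had 5.30, 5.37 and 5.14 at 0 h and 8.95, 8.85 and 8.93 at 6 h and rose 12.5-fold, by 3.64 ± 0.09 (adjusted p = 1.6e-09), while a second probe had 0.95 and did not pass. Per1 (2.14), Cry1 (3.48) and Nfil3 (3.96), a repressor at D-box sites, rose. Dbp, an activator at the same sites, had 13.46, 13.66 and 13.55 at 0 h and 10.86, 10.91 and 10.99 at 6 h and fell 6.23-fold, a change of -2.64 ± 0.08 (adjusted p = 4.2e-09). Nr1d2, which encodes the clock repressor REV-ERBβ, fell by 2.07 ± 0.12. In Per2 and Dbp the times did not overlap. The activators Arntl (2.02) and Clock (1.70) rose.

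Interferon-stimulated genes had the lowest median of the lists, -1.62, and -2.09 on the 75th percentile scale. Of 31 genes 19 fell and 1 rose, against 4.48% and 18.5% of all genes, and 24 fell and 0 rose on the 75th percentile scale. Ifit1, which binds foreign RNA, had 9.30, 9.58 and 9.58 at 0 h and 6.08, 6.21 and 6.17 at 6 h and fell 10.1-fold, a change of -3.34 ± 0.10 (adjusted p = 4.2e-09), with all 6 h arrays below those at 0 h. Beside Ifit2 and Ifit3, the sensors of viral RNA Ddx58 (RIG-I, -3.25 ± 0.16) and Ifih1 (MDA5, -2.53) fell. So did Stat2 (-2.26) and Irf9 (-1.98), which carry the signal of type I interferons, and Irf1 (-1.75 ± 0.09). The chemokine gene Cxcl10 fell by 2.20 ± 0.14, with 2 of 3 arrays well above background at 6 h. Isg15 (-0.66 ± 0.08) fell on the 75th percentile scale only, and Trim25, the ligase that activates RIG-I, had 1.27 ± 0.07 and passed upwards on the spike-in scale only (0.80). The MHC class I light chain gene B2m had 0.92 and did not pass. Background-subtracted values plus 50 gave 12 falls in this list.

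The interferon-stimulated response element was sought on both strands as GAAA, any 2 bases and GAAA. It was in the start window of 14 of 26 genes of the list (53.8%), of 3.87% of all genes, of 5.46% of the genes that fell on both scales and of 3.14% of those that rose. Matches of neighbouring repeats may overlap, and 1 per gene is shown, with the element in capitals (TTTC in place of GAAA where it reads on the other strand). Ifit1 lies at chr19:34640775-34640804 and Ifit3 at chr19:34583363-34583392, Stat2 at chr10:128270266-128270295, Igtp at chr11:58199512-58199541 and Gbp3 at chr3:142559989-142560018, all on the plus strand, and Isg15 at chr4:156200871-156200900 on the minus strand. The first 5 fell, among them Igtp (-1.84) and Gbp3 (-1.33). Isg15 is shown as a gene with the element whose fall depended on the scale.
Ifit1: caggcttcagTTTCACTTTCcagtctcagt
Ifit3: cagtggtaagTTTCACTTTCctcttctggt
Stat2: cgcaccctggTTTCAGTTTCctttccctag
Igtp: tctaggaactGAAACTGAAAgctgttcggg
Gbp3: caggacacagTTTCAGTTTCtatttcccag
Isg15: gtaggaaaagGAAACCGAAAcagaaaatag

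Of 22 mitosis genes 9 fell, 0 rose and 13 did not pass, beside 4.48% falls and 18.5% rises among all genes, and 16 fell on the 75th percentile scale (median -0.87, -1.34). Mki67, the proliferation marker Ki-67, had 10.00, 10.29 and 10.05 at 0 h and 7.51, 7.46 and 7.66 at 6 h and fell 5.92-fold, a change of -2.57 ± 0.10 (adjusted p = 1.2e-08). The kinesin gene Cenpe (-2.22), Ccnb2 (-1.88) and Top2a (-1.78 ± 0.10) fell, and Ccnb1 (-0.92 ± 0.10) on the 75th percentile scale only (-1.40). Of 29 DNA replication genes 3 rose, 8 fell and 18 did not pass, against 1 rise and 17 falls on the 75th percentile scale (median -0.63, -1.11). Tk1, thymidine kinase, had 11.95, 12.15 and 12.03 at 0 h and 9.92, 9.88 and 10.06 at 6 h and fell 4.25-fold, a change of -2.09 ± 0.08 (adjusted p = 1.1e-08). The primase gene Prim1 (-1.93) and the DNA polymerase gene Pola1 (-1.86) fell also. Mki67 and Tk1 had no overlap between the times. Orc2 (1.93) rose, and Pcna (1.07 ± 0.08) and Fen1 (1.19) on the spike-in scale only.

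Among 20 G1 cyclin and CDK inhibitor genes 6 rose and 3 fell, and 4 and 7 on the 75th percentile scale. On the spike-in scale these are 30% and 15%, beside 18.5% and 4.48% of all genes. Genes well above background on all 6 arrays, as these 20 were, gave 27.5% and 6.19%. The cyclin gene Ccnd3 (2.46 ± 0.09), Cdk6 (1.86 ± 0.13) and the inhibitor gene Cdkn1c (2.02 ± 0.19) rose. The pocket protein genes Rb1 (-1.99 ± 0.08) and Rbl1 (-1.52 ± 0.15) and the factor gene E2f1 (-1.44 ± 0.07) fell. The inhibitor gene Cdkn1b had -0.60 for its brightest probe and -1.87 for another.

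Of 38 genes of TGF-β and BMP signalling 22 rose and 3 fell, and 16 and 3 on the 75th percentile scale (median 1.20, 0.72). The spike-in shares were 57.9% and 7.89%, beside 18.5% and 4.48% of all genes. The ligand gene Tgfb1 rose by 2.34 ± 0.07 and its receptor gene Tgfbr1 by 2.20, while Tgfb2 fell by 1.70 ± 0.12. The inhibitory SMAD genes Smad7 (3.94 ± 0.14) and Smad6 (3.81 ± 0.10) rose, as did the target gene Id1 (2.96 ± 0.09). The BMP antagonist gene Grem1 fell by 1.71 ± 0.09. Of 24 actin and SRF target genes 14 rose (58.3%) and 1 fell (4.17%), 7 and 3 on the other scale. Among them were Ccn2, a matricellular protein gene, at 4.90 ± 0.12 (29.9-fold) and Cnn1 (calponin) at 3.19 ± 0.14. Actb, often used as a reference, had -0.44 ± 0.07, and -0.91 on the 75th percentile scale, and did not pass on either.

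Collagens had 6 rises and 0 falls among 25 genes (5 and 1), a share of rises of 24.0% beside 18.5% of all genes and 27.5% of the genes well above background on all 6 arrays. The highest change was that of Col8a2 (3.02 ± 0.44), well above background on no 0 h array and on 2 of 3 at 6 h, and the next were those of Col4a1 (1.89 ± 0.09), a basement membrane chain, Col27a1 (1.85 ± 0.14) and Col18a1 (1.59 ± 0.08). Other matrix and adhesion genes had 12 rises and 1 fall among 30 (7 and 2), or 40% and 3.33%. The fibronectin receptor chain Itga5 (3.69 ± 0.08) and tenascin C, Tnc (3.64 ± 0.21), led them. Matrix proteases and inhibitors had 9 rises and 2 falls among 28 (4 and 4), or 32.1% and 7.14%. Timp1, an inhibitor of metalloproteinases, rose by 3.35 ± 0.08 and the urokinase receptor gene Plaur by 3.76 ± 0.12, while the aggrecanase genes Adamts5 and Adamts1 (-1.96 ± 0.11) fell.

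Of 27 cytokine and chemokine genes 15 rose and 2 fell, and 10 and 3 on the 75th percentile scale (median 1.30, 0.82). The first 2 counts are 55.6% and 7.41%, beside 18.5% and 4.48% of all genes. After Il11, the largest rises were Lcn2 (4.32 ± 0.15), a carrier of iron-binding siderophores, and Il6 (3.13 ± 0.14). The chemokine gene Ccl2 rose by 2.43 ± 0.08, and the alarmin gene Il33 (-1.26 ± 0.15) fell with Cxcl10. The suppressors of cytokine signalling Socs2 (5.82 ± 0.21, well above background on 2 of 3 arrays at 0 h), Socs3 (2.19 ± 0.08) and Socs1 (1.89 ± 0.08) rose. In their list of 22 genes 10 rose (45.5%), 4 on both scales, and 0 fell on the spike-in scale. Vegfa, an angiogenic factor, rose by 4.02.

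Of 35 Wnt pathway genes 9 rose and 3 fell (5 and 6), or 25.7% and 8.57%, beside 18.5% and 4.48% of all genes. Wnt2 (4.74 ± 0.15) and Dact1 (3.87 ± 0.53) were highest and the antagonist gene Dkk2 (-2.90 ± 0.43, well above background on 1 of 3 arrays at 6 h) lowest. Of 19 stress and upstream open reading frame (uORF) mRNAs 5 rose and 3 fell (4 and 4), or 26.3% and 15.8%. Beside Cebpb, Xbp1 (2.98 ± 0.08) and the amino acid transporter gene Slc7a5 (2.10 ± 0.12) rose, and Chac1 (-1.74 ± 0.14) and Trib3 (-1.25 ± 0.09) fell with Ddit3. Known targets of ATF4 were thus on both sides, Slc7a5 among the rises and Chac1 and Trib3 among the falls, and Asns, another, had 0.65 ± 0.07 and did not pass. Of 11 AU-rich element binding proteins 6 rose (54.5%) and 0 fell, 2 on both scales, namely Zc3h12a (2.48 ± 0.13) and Zfp36 (2.10 ± 0.10), which destabilise cytokine mRNAs. Of 9 long non-coding RNAs 2 rose and 1 fell (2 and 3), or 22.2% and 11.1%. The rises included the snoRNA host RNA Snhg3 (1.60), which was well above background on all 6 polysomal arrays.

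Gene families counted by the start of the symbol, chosen after the values were seen, differed widely. All genes gave 18.5% rises and 4.48% falls on the spike-in scale, and 8.35% and 8.73% on the other. Of 886 olfactory receptor genes (Olfr) 120 rose on the spike-in scale (13.5%) and 21 on the 75th percentile scale (2.37%), and their median of 0.57 was close to that of all genes. Of 331 zinc finger genes (Zfp) 42 rose (12.7%) and 23 fell (6.95%), and 13 (3.93%) and 64 (19.3%) on the 75th percentile scale (median 0.13, -0.35). Kinesin genes (Kif) fell in 10 (28.6%) and rose in 2 (5.71%) of 35 cases (14 and 1 on the 75th percentile scale). Centrosomal genes (Cep) fell in 9 (23.7%) and rose in 2 (5.26%) of 38 (14 and 0), and Arhgap genes in 10 (30.3%) and 4 (12.1%) of 33 (10 and 1). Of 12 late cornified envelope genes (Lce1) 5 rose on both scales (41.7%), such as Lce1g (5.87) and Lce1i (5.81), but their sequences are so alike that 1 transcript may give the signal of several probes.

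The labelled cell type was checked by its markers. All 16 fibroblast and preadipocyte marker genes were well above background on all 6 arrays, and 3 rose and 1 fell (1 and 3 on the 75th percentile scale). The 18.8% that rose and the 6.25% that fell on the spike-in scale were near the 18.5% and 4.48% of all genes. Genes well above background on all 6 arrays, as these 16 were, gave 27.5% and 6.19%. Vim (vimentin) had 1.11 ± 0.07, passing on the spike-in scale only, and Pdgfra fell by 1.26 ± 0.09 on its brightest probe, with -0.03 on another. Of 17 markers of other cell types 5 rose and 0 fell, a share of rises of 29.4% beside 18.5% of all genes. The 3 that rose on both scales were Cdh5 of endothelium and Csf1r (1.78 ± 0.13) and Cd14 (1.57 ± 0.07) of macrophages. Cdh5 was not well above background at 0 h and was at least 3.25-fold higher at 6 h. The macrophage marker gene Adgre1 had -0.69 ± 0.67 and the leukocyte marker gene Ptprc -1.46 ± 1.16, neither was called, and each was well above background on 1 array at 0 h and on 0 at 6 h. Another probe of Csf1r had -0.92 and was not called. The summed linear signal of these 17 genes was 1140 to 1323 at 0 h and 3120 to 3157 at 6 h, and that of the 16 fibroblast markers 1095318 to 1194570 at 0 h and 1623022 to 1649126 at 6 h. Pecam1, Tek, Epcam, Krt18 and Alb, which define endothelium, epithelium and liver, stayed near background on all 6 arrays by the software's rating. In such bulk RNA a different number of cells of a type and a different amount of RNA per cell cannot be told apart, and the part of other cells in the changes was not tested.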

How the data were processed

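The authors labelled RNA of pooled sucrose gradient fractions with Cy3, hybridised it to one-color Agilent mouse arrays, 12 arrays on 3 slides with 1 array of each group per slide, and deposited the scanner files. These hold intensities per spot. The intensity used here is the processed signal, background-subtracted but, per the file headers, not normalized between arrays. The authors also deposited a table of log2 values, which match the log2 of the median pixel intensity, averaged per probe without background subtraction, up to 1 constant for each array. It was used as an alternative. Of 45018 spots per array 1639 were controls, and the others gave 41174 probes, of which 26690 (64.8%) were named through RefSeq accessions of GRCm38.p6. In all, 18217 of 32301 gene names are symbols, and the rest are accessions as in the files.

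The processed signal was taken to log2, spots marked as outliers were left out (94 to 145 per polysomal array, leaving 158 probe values missing and 1 probe without a change), spots of a probe were averaged, and the offset of 10 spike-in transcripts with 32 spots each was subtracted. The fit was lmFit and eBayes (limma 3.58.1, R 4.3.3) on all 12 arrays with Benjamini-Hochberg adjustment over all probes. Values after ± are standard errors of this fit unless SD is given. The p-values rest on the spread between the 3 arrays within each group, pooled over both fractions and both times and moderated over probes. Polysomal and non-polysomal arrays were treated as independent in this fit. A fold against a group that was not well above background is a bound, set by the lowest signal rated well above background on each array. Precision is limited by having 3 arrays per time. The steps were tested on simulated data.

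Members, lists and tests were chosen with earlier results of these data known. The genes named are the 12 largest rises and falls called on both scales, well above background on all 6 arrays and of the same sign at each replicate number, the 5 largest bounds in each direction, and in each list its key genes and up to 3 largest rises and falls. One item that this rule covers is not reported here. Other genes named were chosen after their values had been seen. Alternatives were 75th percentile scaling, quantile normalization, brighter or dimmer spike-ins only, the authors' values, background-subtracted medians plus 50 (added after seeing the data), leaving out dim probes, keeping outlier spots, the 6 arrays alone, a prior variance with a trend, averaging the probes of a gene, the replicate number as a block, and leaving out each array or slide. Motifs were sought in RefSeq windows of 300 bases.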

Additional observations from a re-analysis of the deposited data

How the results depend on the processing

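The number of probes that rose and fell was 7891 and 2061, and of genes 5979 and 1448, with a median change of 0.54. With 75th percentile scaling they were 3640 and 4014 probes, 2698 and 2820 genes and a median of 0.062, with quantile normalization 3204 and 3843, 2321 and 2837, and 0.0077, with the brighter spike-ins 4093 and 3637, 3054 and 2560, and 0.13, and with the dimmer spike-ins 15286 and 1182, 11914 and 838, and 0.94. Background-subtracted values plus 50, a setting chosen after seeing the data, gave 4835 and 690 probes and 3604 and 560 genes. The authors' values gave 5463 and 946 probes, 4050 and 739 genes and a median of 0.48. Leaving out 1 array or 1 slide gave 7139 to 8242 probes and 5352 to 6201 genes that rose, 1846 to 2223 and 1313 to 1578 that fell, and medians of 0.44 to 0.64, the highest without the second 0 h array. Arrays of the same replicate number shared a slide, and their deviations from the group means correlated by 0.20, 0.047 and 0.39. Within the slides the median change was 0.47, 0.53 and 0.61. With the replicate number as a block 7916 probes rose and 2055 fell, and 6002 and 1442 genes, and none of the 243 named genes changed its call. The normexp correction was not run, because its fit did not settle on 3 of 12 arrays.

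Of the 243 named genes, 220 kept direction and call under 75th percentile scaling, 206 under quantile normalization, 224 and 220 with the brighter and the dimmer spike-ins, 222 with background-subtracted values plus 50 and 231 with the authors' values. Directions turned in 15, of which Dusp8 was called on both scales and Dlk1 and Eif4ebp1 on the spike-in scale. The 75th percentile turned the change of Epcam (-0.17), of Pecam1 (-0.029), of Rpl21 (-0.34) and of Tek (-0.011). Quantile normalization turned the change of Asns (-0.68), of B2m (-0.27), of Cebpd (-0.32), of Dlk1 (-0.077), of Eif4ebp1 (-0.012), of Epcam (-0.20), of Ncl (-0.073), of Pecam1 (-0.084), of Rpl21 (-0.69), of Rps27l (-0.43) and of Tek (-0.083). The brighter spike-ins turned the change of Epcam (-0.098) and of Rpl21 (-0.27), the dimmer ones the change of Pparg (0.35), and background-subtracted values plus 50 the change of Dusp8 (0.023), of Adgre1 (0.35) and of Ptprc (0.14). The authors' values turned the change of Adgre1 (0.19). Without single arrays or slides the change of Pparg ran from -0.12 to 0.040, with 0.0071 without the second 0 h array and 0.040 without the second slide, the change of Rpl21 from -0.024 to 0.38, that of Adgre1 from -1.63 to 0.20 and that of Ptprc from -2.55 to 0.25. Where a change with the setting is not one of scaling or of fewer arrays, the cause was not tested. The offset of the spike-ins limits every direction within about the shared shift, and the signal over background limits the falls of dim probes.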
